A study of Mus musculus with 24 samples.

Results

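The genes that make cholesterol and fatty acids were examined in cultured neural stem and progenitor cells (NSPCs) of mouse embryos with and without *Kat6a*, which encodes a histone lysine acetyltransferase. The members are 33 genes chosen by symbol: 8 enzymes of the mevalonate pathway, 11 enzymes that turn farnesyl diphosphate into cholesterol, 4 genes of sterol sensing and transport and 10 enzymes of fatty acid synthesis. All 33 were found among the 26411 genes of the count files, and all 33 passed the filter on low counts in both culture conditions.

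NSPCs were grown from the dorsal telencephalon, the part of the forebrain that forms the cortex, of C57BL/6 embryos at E12.5. The embryos came from intercrosses of heterozygotes and were *Kat6a*+/+, *Kat6a*+/– or *Kat6a*–/–, where the null allele lacks exons and gains a premature stop codon in every cell of the embryo. Proliferating NSPCs were kept for 3 days on uncoated plastic, where *Kat6a*+/+ cells float as neurospheres, with the growth factors FGF2 and EGF, and differentiating NSPCs were kept for 3 days on poly-ornithine and laminin with 1% serum in place of the growth factors. Each genotype had 4 libraries in each condition, 24 in all, from polyadenylated RNA. RNA was extracted with a different kit in each condition, so that kit, serum, coating and differentiation cannot be told apart. The study describes *Kat6a*+/– and *Kat6a*–/– cells as tending to attach to the plastic, so that attachment and genotype cannot be told apart in proliferating NSPCs either. Each culture came from 1 embryo, and p-values measure the spread between these cultures. By their labels, the libraries came from 18 embryos, of which 6 gave a library in both conditions. Fits of all 24 libraries blocked on litter or, as an alternative, on embryo. The litter labels of *Kat6a*+/+ replicate 2 differ between conditions only in the order of their digits, and the embryo number is the same. A typing error is possible, so these libraries may share an embryo. The labels were kept as given, and the effect on these fits was not tested.

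Cholesterol is built from acetyl-CoA through mevalonate and squalene, and fatty acids are built from the same acetyl-CoA by carboxylation and repeated elongation. The SREBP transcription factors, encoded by *Srebf1* and *Srebf2*, are held in the endoplasmic reticulum by INSIG proteins when sterols are plentiful and are released to the nucleus to activate most of these genes when sterols run low. Dividing cells need both products for new membrane, and the brain makes nearly all of its own cholesterol.

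Promoter sequences from RefSeq, on build GRCm38.p6, were read from 250 bases before to 50 bases after each start site, and were found for 26 of the 33 genes. The sterol response element TCACNCCAC, to which SREBPs bind, was searched on both strands and was present in 1 of the 26 genes, *Hmgcs1*, which is 3.85%, against 1.44% of all genes with a promoter. The CCAAT box, bound by the factor NF-Y, which is known to act beside SREBPs, was present on either strand in 22 of the 26 genes, which is 84.6%, against 41.1% of all genes. The E-box CACGTG was present in 15.4% against 8.09%, and the shorter motif CACNCCA, which TCACNCCAC contains, in 19.2% against 20.6% (this motif was added after the others were seen). The sequences below are the sterol response element of *Hmgcs1*, in capitals at position −137 from the start, and the CCAAT boxes, in capitals and written ATTGG where they lie on the other strand, of 4 genes on which the comparisons turn, which were picked with their values known. *Hmgcs1* (chr13:119690184-119690252), *Idi1* (chr13:8885486-8885605) and *Acss2* (chr2:155517923-155518042) lie on the plus strand, and *Ebp* (chrX:8193513-8193632) and *Fasn* (chr11:120824548-120824667) on the minus strand.
Hmgcs1: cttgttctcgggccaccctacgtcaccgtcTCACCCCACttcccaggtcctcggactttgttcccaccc
Idi1: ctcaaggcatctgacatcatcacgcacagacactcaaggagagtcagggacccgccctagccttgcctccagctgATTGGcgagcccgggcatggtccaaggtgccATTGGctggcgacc
Ebp: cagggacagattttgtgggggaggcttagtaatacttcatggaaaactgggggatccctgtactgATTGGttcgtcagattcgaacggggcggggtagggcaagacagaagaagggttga
Acss2: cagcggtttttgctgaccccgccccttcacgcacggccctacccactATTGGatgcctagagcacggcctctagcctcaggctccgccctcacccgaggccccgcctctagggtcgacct
Fasn: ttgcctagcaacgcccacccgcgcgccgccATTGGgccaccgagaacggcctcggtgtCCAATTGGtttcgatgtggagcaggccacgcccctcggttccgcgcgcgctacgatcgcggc
A match of letters is a description of the window and not a measured binding site.

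Total counts ranged from 7826660 to 40838203 per library. *Kat6a* itself was at 395 ± 16.7 CPM (the counts of a gene scaled to a common library total with TMM factors, mean ± SD, n = 4) in proliferating *Kat6a*+/+, at 353 ± 16.5 CPM in *Kat6a*+/– and at 355 ± 24.6 CPM in *Kat6a*–/– NSPCs, and at 267 ± 24.2, 236 ± 17.9 and 191 ± 43.1 CPM in the same order in differentiating NSPCs. These counts cover the whole gene with its undeleted exons and so do not check the genotype labels. By their Y-linked reads, 3 of the 4 *Kat6a*+/+ embryos but 1 of the 4 of each mutant genotype were male in each condition, so that sex was unevenly spread over the genotypes, and *Ebp* and *Nsdhl* lie on the X chromosome. Litters, 5 in proliferating and 7 in differentiating NSPCs, were unevenly spread as well. The part of sex in the results was not tested.

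The 33 genes spanned a wide range of mRNA levels. Per kilobase of transcript, the highest level in proliferating *Kat6a*+/+ NSPCs was that of *Scd2*, the main desaturase of saturated fatty acids in brain, at a mean of 824 CPM per kb, followed by *Hmgcs1*, which makes the substrate of the committed step to mevalonate, at 409.7 CPM per kb and *Acly*, which makes cytosolic acetyl-CoA from citrate, at 191 CPM per kb. The lowest were *Acaca* at 12.1, *Ggps1* at 12.4, *Hsd17b7* at 14.9 and *Me1* at 15.2 CPM per kb. In differentiating *Kat6a*+/+ NSPCs, *Scd2* (900.4 CPM per kb) and *Hmgcs1* (273 CPM per kb) were again the highest, and *Acaca* (6.56 CPM per kb) and *Ebp* (6.99 CPM per kb) were the lowest. Together the 33 genes took between 1.49% and 1.64% of the counts of each proliferating *Kat6a*+/+ library and between 1.19% and 1.46% of each proliferating *Kat6a*–/– library. In differentiating NSPCs their share was between 1.16% and 1.28% in *Kat6a*+/+ and between 0.902% and 1.26% in *Kat6a*–/– libraries.

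The first comparison asked how mRNA levels of these genes differed between *Kat6a*–/– and *Kat6a*+/+ NSPCs while the cells proliferated. Of the 33 genes, 8 fell and 2 rose at a false discovery rate (FDR, Benjamini-Hochberg over all tested genes in limma) under 0.05, and the median log2 fold-change was −0.16, with a median near 0 over all genes. Over all 12276 genes tested, 13.8% fell and 16.2% rose, which is 30.0% in all. By role, 2 of 8 mevalonate enzymes fell, 3 of 11 enzymes from squalene to cholesterol fell and 1 rose, 1 of 4 sensing and transport genes fell, and 2 of 10 fatty acid enzymes fell and 1 rose. The 4 *Kat6a*–/– libraries lay entirely below the 4 *Kat6a*+/+ libraries for 13 of the 33 genes and entirely above for 2, against 17.6% and 13.7% of all genes (31.3% in all). The number of calls depended on single libraries and was 4 without *Kat6a*–/– replicate 4, 5 without *Kat6a*–/– replicate 1 or *Kat6a*+/+ replicate 4, and 6 without *Kat6a*+/+ replicate 1 or 2. Over all genes the same fits called 2661, 2927, 2841, 2317 and 2786 in that order, against 3686 in the main fit.

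**Figure D1:**
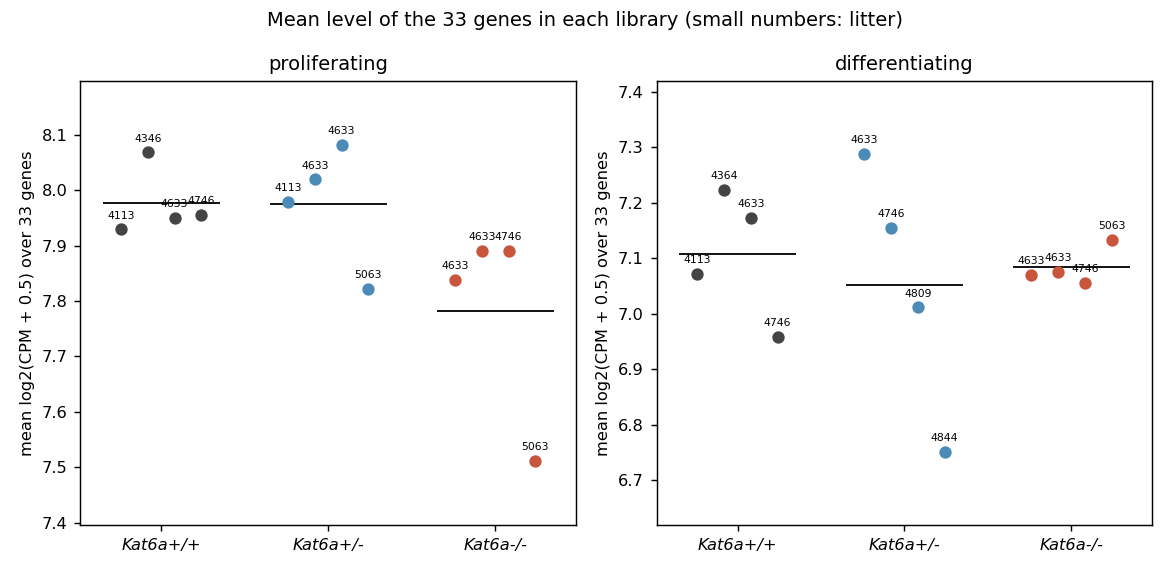
Mean over the 33 genes of log2(CPM + 0.5) in each library (vertical axis), by genotype (horizontal axis), for proliferating (left) and differentiating (right) NSPCs. Each point is a library with its litter number, and the line is the mean of 4 libraries. Proliferating *Kat6a*–/– libraries lay between 7.51 and 7.89 and *Kat6a*+/+ libraries between 7.93 and 8.07, whereas the genotypes overlapped in differentiating NSPCs.

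Other features of the libraries moved with this comparison. Proliferating *Kat6a*–/– replicate 4 was the lowest of its group for 30 of the 33 genes, and *Kat6a*+/– replicate 4, from the same litter, was the lowest of its group for 26. That litter held no *Kat6a*+/+ library. When both its libraries were left out, 8 of the 33 genes were called (7 lower, 1 higher), and so were 3492 of all 12273 genes. Among litters with both genotypes, 24 of 33 genes were lower in *Kat6a*–/– in litter 4633 (median difference −0.14 on the log2 scale, 2 null libraries against 1) and 22 of 33 in litter 4746 (median −0.05, 1 against 1). The summed level of 10 cell cycle genes lay between 3282 and 3709 CPM in proliferating *Kat6a*+/+ and between 1848 and 3270 CPM in *Kat6a*–/– libraries, with 5 of the 10 called lower. The summed level of 8 astrocyte markers lay between 786 and 979 CPM in *Kat6a*+/+ and between 1438 and 2275 CPM in *Kat6a*–/– libraries, with 5 of 7 tested called higher. Neural stem and progenitor markers, 8 in number, summed to between 7450 and 8322 CPM in *Kat6a*+/+ and to between 5368 and 7470 CPM in *Kat6a*–/– libraries, with 2 called higher and 2 lower. Neuron markers summed to between 959 and 1243 CPM in *Kat6a*+/+ and to between 1184 and 1323 CPM in *Kat6a*–/– libraries. Of 7 neuron markers tested, 3 were called lower and 1 higher. Microglial markers, 8 in number, summed to between 1.37 and 1.52 CPM in *Kat6a*+/+ and to between 6.58 and 8.76 CPM in *Kat6a*–/– libraries. Of these 8, 1 passed the filter on low counts, and up to 7 had no reads in a *Kat6a*–/– library. The sum thus rests on few genes at low levels. The part of these features in the levels of the 33 genes was not tested. In these bulk libraries, fewer cells of a type and less RNA per cell cannot be told apart.

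Among the mevalonate enzymes, all 8 fitted estimates were negative in proliferating *Kat6a*–/– NSPCs and 2 passed the test. *Pmvk*, which encodes phosphomevalonate kinase, was at 70.2, 84.5, 66.8 and 77.5 CPM in the *Kat6a*+/+ libraries and at 60.6, 55.0, 55.3 and 45.1 CPM in the *Kat6a*–/– libraries. *Fdps*, which encodes the farnesyl diphosphate synthase that feeds both sterols and protein prenylation, was at 191, 204, 177 and 208 CPM in *Kat6a*+/+ and at 132, 162, 164 and 109.8 CPM in *Kat6a*–/– libraries. For both genes every *Kat6a*–/– library lay below every *Kat6a*+/+ library. Each fell by 0.40 on the log2 scale, with an SE of 0.11 and an FDR of 0.0195 for *Pmvk* and an SE of 0.12 and an FDR of 0.0218 for *Fdps* in limma. *Acat2*, whose thiolase opens the pathway, and *Hmgcs1* also had all *Kat6a*–/– libraries below the *Kat6a*+/+ range but did not pass the test (log2 fold-change −0.38, FDR 0.0673, and −0.23, FDR 0.0902, limma).

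Among the enzymes from squalene to cholesterol, *Dhcr7*, *Nsdhl* and *Ebp* fell in proliferating *Kat6a*–/– NSPCs and *Hsd17b7* rose. *Dhcr7* (GRCm39 chromosome 7, 143376740 to 143402149, plus strand) encodes 7-dehydrocholesterol reductase, which makes cholesterol in the last step of a branch of the route, and was at 321, 349, 361 and 369 CPM in *Kat6a*+/+ and at 272, 285, 293 and 173 CPM in *Kat6a*–/– libraries. The groups did not overlap, and the lowest library by far was *Kat6a*–/– replicate 4. *Dhcr7* fell by 0.44 on the log2 scale (SE 0.11, FDR 0.0118, limma), and it stayed called in all 20 alternative fits. *Hsd17b7*, which encodes a ketosteroid reductase of the same route, was at 59.7, 73.8, 69.6 and 70.4 CPM in *Kat6a*+/+ and at 81.0, 81.4, 74.1 and 77.5 CPM in *Kat6a*–/– libraries. The groups of *Hsd17b7* were apart by a narrow margin, the log2 fold-change was 0.22 (SE 0.08, FDR 0.0458, limma), and 8 of 20 alternative fits called it. *Nsdhl*, a dehydrogenase that removes methyl groups from sterol precursors, fell by 0.28 on the log2 scale (FDR 0.0334) and *Ebp*, a sterol isomerase, by 0.26 (FDR 0.0383). *Lss*, which closes the sterol rings, was at 304 to 318 CPM in 3 *Kat6a*–/– libraries and at 168 CPM in the other, all below the 339 to 400.0 CPM of *Kat6a*+/+, and did not pass the test (log2 fold-change −0.34, FDR 0.104, limma).

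*Srebf2*, which encodes the SREBP that mainly drives cholesterol genes, was the gene of sterol sensing that fell in proliferating *Kat6a*–/– NSPCs. It was at 673, 691, 612 and 683 CPM in *Kat6a*+/+ and at 555, 567, 533 and 451 CPM in *Kat6a*–/– libraries, with no overlap. The fall was 0.28 on the log2 scale (SE 0.07, FDR 0.0117, limma), and all 20 alternative fits called it. *Srebf1*, which encodes the SREBP that mainly drives fatty acid genes, was at 281, 266, 247 and 263 CPM in *Kat6a*+/+ and at 282, 250.4, 254 and 203 CPM in *Kat6a*–/– libraries. *Insig1*, a sterol sensor and itself a target of SREBPs, was at 407, 462, 415 and 422 CPM in *Kat6a*+/+ and at 465, 459, 405 and 376 CPM in *Kat6a*–/– libraries. For *Srebf1* and *Insig1* the groups overlapped and neither passed the test (log2 fold-change −0.03, FDR 0.786, and 0.03, FDR 0.766, limma). *Stard4*, a soluble sterol carrier, was at 229, 269, 209.8 and 262 CPM in *Kat6a*+/+ and at 174, 199, 192 and 155 CPM in *Kat6a*–/– libraries, and this difference between groups that did not overlap missed the threshold (log2 fold-change −0.36, SE 0.13, FDR 0.0558, limma).

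Among the enzymes of fatty acid synthesis, the largest differences of all 33 genes stood side by side in opposite directions. *Me1* (GRCm39 chromosome 9, 86462646 to 86578104, minus strand) encodes the cytosolic malic enzyme, which makes NADPH for lipid synthesis, and was at 50.3, 53.2, 65.7 and 48.6 CPM in *Kat6a*+/+ and at 133, 89.0, 121 and 169 CPM in *Kat6a*–/– libraries. *Acss2* (GRCm39 chromosome 2, 155355679 to 155428016, plus strand) encodes the enzyme that makes acetyl-CoA from acetate in cytosol and nucleus, and was at 179, 198, 144 and 172 CPM in *Kat6a*+/+ and at 86.4, 105, 105 and 74.2 CPM in *Kat6a*–/– libraries. Neither gene had overlapping groups. *Me1* rose 2.23-fold (log2 fold-change 1.16, SE 0.21, FDR 0.00188) and *Acss2* fell to 0.571 of its *Kat6a*+/+ level (log2 fold-change −0.81, SE 0.17, FDR 0.00482, limma), and all 20 alternative fits called both. Within litters 4633 and 4746, *Me1* was higher in *Kat6a*–/– by 0.72 and 1.30 and *Acss2* lower by −0.60 and −0.71 on the log2 scale. *Acly* fell by 0.28 on the log2 scale (FDR 0.0287, limma), with 691, 758, 713 and 526 CPM in *Kat6a*–/– against 802 to 882 CPM in *Kat6a*+/+ libraries. *Fasn*, the fatty acid synthase, did not pass the test (FDR 0.992, limma) and ranged from 1175 to 1372 CPM in *Kat6a*+/+ and from 909 to 1530.5 CPM in *Kat6a*–/– libraries.

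**Figure D2:**
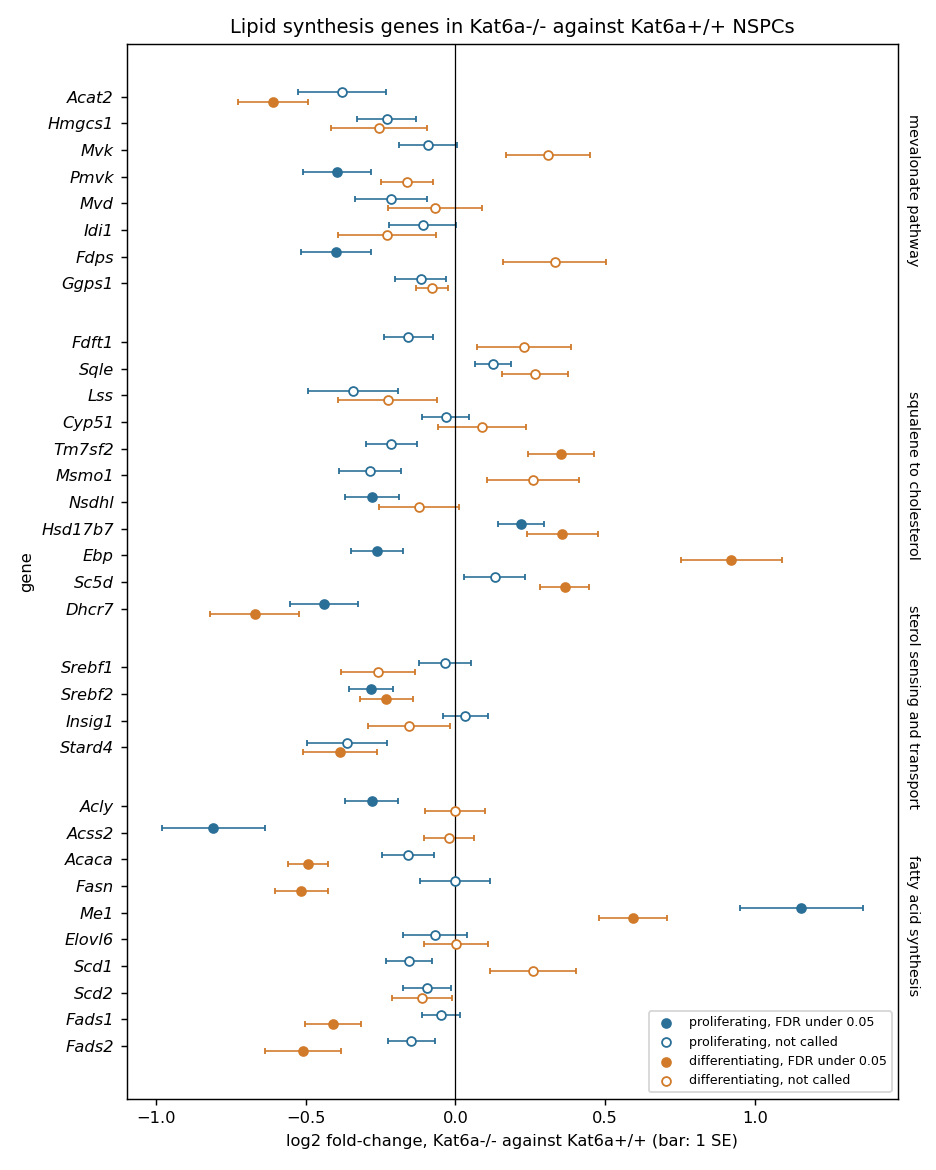
Fitted log2 fold-change of *Kat6a*–/– against *Kat6a*+/+ NSPCs (horizontal axis) for each of the 33 genes (vertical axis, grouped by role), in proliferating (blue) and differentiating (orange) NSPCs. Bars are 1 SE, and filled points had an FDR under 0.05. *Me1* was called higher in both conditions, at 1.16 and 0.59, *Dhcr7* was called lower in both, at −0.44 and −0.67, and *Ebp* was called lower in proliferating (−0.26) and higher in differentiating NSPCs (0.92). Of 20 alternative fits, 12 called *Ebp* in proliferating and 15 in differentiating NSPCs, and 15 called *Dhcr7* in differentiating NSPCs.

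The same genotypes were then compared in differentiating NSPCs. Of the 33 genes, 8 fell and 5 rose, with a median log2 fold-change of −0.08 against −0.02 over all genes. Over all 13339 genes tested, 27.7% fell and 26.7% rose, which is 54.4% in all, above the share among the 33. By role, 1 of 8 mevalonate enzymes fell, 4 of 11 enzymes from squalene to cholesterol rose and 1 fell, 2 of 4 sensing and transport genes fell, and 4 of 10 fatty acid enzymes fell and 1 rose. The *Kat6a*–/– libraries lay entirely below the *Kat6a*+/+ range for 4 genes and entirely above for 1, against 14.7% and 12.2% of all genes (26.9% in all). This fit weighted libraries by quality and gave *Kat6a*–/– replicate 3 69.0% of the weight of its group, replicate 1 16.8%, replicate 4 10.0% and replicate 2 4.22%, so that a fitted fold-change can differ from the ratio of mean CPM. Without weights 4 genes were called, *Me1* higher and *Acaca*, *Fasn* and *Acat2* lower, and so were 3097 of all 13339 genes. Without *Kat6a*–/– replicate 1 or without replicate 3 none of the 33 was called (1212 and 939 of all genes were). Without replicate 2, 22 were called, and so were 9505 of all 13460 genes then tested.

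The genes whose groups did not overlap in differentiating NSPCs were *Acat2*, *Dhcr7*, *Acaca* and *Fasn*, which were lower, and *Me1*, which was higher in *Kat6a*–/–. *Acat2* was at 65.1, 61.0, 70.2 and 59.4 CPM in *Kat6a*+/+ and at 47.1, 44.2, 40.9 and 50.5 CPM in *Kat6a*–/– libraries. *Dhcr7* was at 106, 110.4, 116 and 93.9 CPM in *Kat6a*+/+ and at 76.5, 82.2, 62.4 and 88.2 CPM in *Kat6a*–/– libraries. *Acat2* fell by 0.61 on the log2 scale (SE 0.12, FDR 0.000917) and *Dhcr7* by 0.67 (SE 0.15, FDR 0.00238, limma). Of 20 alternative fits, 18 called *Acat2* and 15 called *Dhcr7*.

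*Acaca* (GRCm39 chromosome 11, 84020476 to 84292477, plus strand), which encodes the acetyl-CoA carboxylase that commits carbon to fatty acids, was at 59.4, 56.0, 67.8 and 57.6 CPM in differentiating *Kat6a*+/+ and at 44.9, 48.4, 42.9 and 45.3 CPM in *Kat6a*–/– libraries. *Fasn* (GRCm39 chromosome 11, 120696672 to 120715995, minus strand) was at 566, 546, 575 and 439 CPM in *Kat6a*+/+ and at 383, 402, 377 and 415 CPM in *Kat6a*–/– libraries. *Me1* was at 109.9, 123, 129 and 93.7 CPM in *Kat6a*+/+ and at 159, 212, 174 and 179.9 CPM in *Kat6a*–/– libraries. Every *Kat6a*–/– library was below the *Kat6a*+/+ range for *Acaca* and *Fasn* and above it for *Me1*. *Acaca* fell by 0.49 on the log2 scale (SE 0.07, FDR 7.73e-05), *Fasn* fell by 0.51 (SE 0.09, FDR 0.000384) and *Me1* rose by 0.59 (SE 0.11, FDR 0.000852, limma). Within litters 4633 and 4746 the differences were −0.54 and −0.42 for *Acaca*, −0.55 and −0.22 for *Fasn* and 0.51 and 0.89 for *Me1* on the log2 scale. With litter as a fixed term *Acaca* and *Me1* stayed called and *Fasn* did not. *Fads1* and *Fads2*, the desaturases that make polyunsaturated fatty acids, fell by 0.41 (FDR 0.00305) and by 0.51 (FDR 0.00468, limma). *Fads2* was at 727, 591, 629.7 and 702 CPM in *Kat6a*+/+ and at 381, 896, 459 and 639.6 CPM in *Kat6a*–/– libraries, which lay on both sides of the *Kat6a*+/+ range, and its log2 fold-change was as near 0 as −0.02 among 20 alternative fits, 14 of which called it. *Fads1* was at 544, 489, 494 and 502 CPM in *Kat6a*+/+ and at 307, 507, 389 and 494 CPM in *Kat6a*–/– libraries, so that 2 null libraries lay within the *Kat6a*+/+ range, and no call remained for either gene without weights.

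The 4 enzymes from squalene to cholesterol that rose in differentiating *Kat6a*–/– NSPCs were *Ebp*, *Sc5d*, *Tm7sf2* and *Hsd17b7*. *Ebp* (GRCm39 chromosome X, 8050773 to 8059795, minus strand) was at 11.8, 15.7, 13.1 and 8.17 CPM in *Kat6a*+/+ and at 26.4, 13.1, 23.7 and 16.2 CPM in *Kat6a*–/– libraries. *Sc5d*, a sterol desaturase, was at 101, 124, 110.4 and 103 CPM in *Kat6a*+/+ and at 133, 129.6, 141 and 120.3 CPM in *Kat6a*–/– libraries. For *Ebp* and *Sc5d*, 3 of 4 null libraries lay above the *Kat6a*+/+ range.

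*Ebp* rose by 0.92 on the log2 scale (SE 0.17, FDR 0.000609) and *Sc5d* by 0.36 (SE 0.08, FDR 0.00236, limma). Neither was called with litter as a fixed term or without quality weights, and *Ebp* in proliferating NSPCs also lost its call with litter as a fixed term. Of 20 alternative fits, 15 called *Ebp* in differentiating and 12 in proliferating NSPCs. *Tm7sf2*, a sterol reductase, was at 23.8, 31.5, 26.4 and 22.6 CPM in differentiating *Kat6a*+/+ and at 30.2, 24.7, 32.5 and 36.0 CPM in *Kat6a*–/– libraries. *Hsd17b7* was at 65.6, 88.1, 73.3 and 64.8 CPM in *Kat6a*+/+ and at 87.7, 112, 89.1 and 86.7 CPM in *Kat6a*–/– libraries. The groups of *Tm7sf2* overlapped in 2 null libraries, and those of *Hsd17b7* overlapped in 2. Their log2 fold-changes were 0.35 (FDR 0.0168) and 0.36 (FDR 0.0223, limma), and 11 of 20 alternative fits called each of them.

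**Figure D3:**
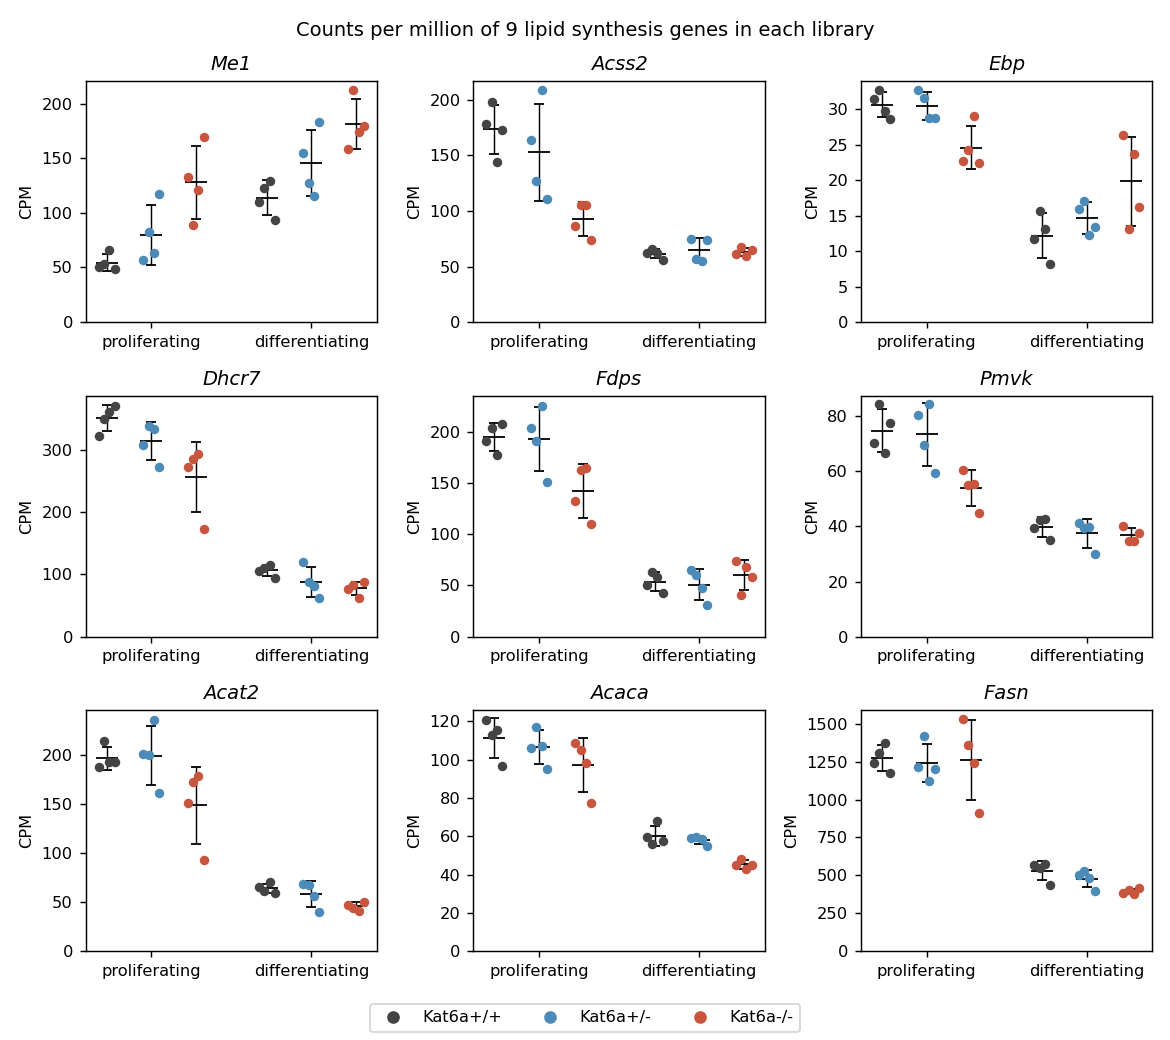
CPM (vertical axis, from 0) of 9 genes in each of the 24 libraries, by condition and genotype (*Kat6a*+/+ grey, *Kat6a*+/– blue, *Kat6a*–/– red). Points are libraries and bars are mean ± SD of 4. *Acss2* separated the genotypes in proliferating NSPCs (173 ± 22.0 against 92.7 ± 15.2 CPM) and not in differentiating NSPCs (61.5 ± 4.25 against 63.2 ± 3.50 CPM), and *Fasn* and *Acaca* groups overlapped in proliferating and were apart in differentiating NSPCs.

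Among the sensing and transport genes, *Srebf2* and *Stard4* fell in differentiating *Kat6a*–/– NSPCs. *Srebf2* was at 414, 455, 409.9 and 392 CPM in *Kat6a*+/+ and at 359, 364, 342 and 399 CPM in *Kat6a*–/– libraries. *Stard4* was at 69.7, 86.5, 85.8 and 68.1 CPM in *Kat6a*+/+ and at 60.9, 70.4, 56.1 and 64.4 CPM in *Kat6a*–/– libraries. In each gene 1 null library overlapped the *Kat6a*+/+ range. *Srebf2* fell by 0.23 (SE 0.09, FDR 0.0406) and *Stard4* by 0.39 on the log2 scale (SE 0.12, FDR 0.0198, limma), called in 9 and 12 of 20 alternative fits. *Srebf1* was at 585, 520.1, 564 and 503 CPM in *Kat6a*+/+ and at 339.8, 461, 489 and 574 CPM in *Kat6a*–/– libraries, with 3 null libraries below the *Kat6a*+/+ range and an FDR of 0.0916 (log2 fold-change −0.26, limma). *Insig1* was at 213, 269, 263 and 217 CPM in *Kat6a*+/+ and at 216, 209, 208 and 216 CPM in *Kat6a*–/– libraries, which overlapped (log2 fold-change −0.16, FDR 0.36, limma).

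In differentiating NSPCs too, other measures moved with the genotype. The study found fewer cells with the neuronal protein ßIII-tubulin in *Kat6a*–/– cultures, and names the differing cell types as a caveat of these RNA data. Of 8 neuron markers, 4 were called lower and 1 higher. Their sums overlapped, at 553 to 744 CPM in *Kat6a*+/+ and 472 to 785 CPM in *Kat6a*–/– libraries. The 10 cell cycle genes summed to between 733 and 1257 CPM in *Kat6a*+/+ and to between 109 and 286 CPM in *Kat6a*–/– libraries, with 10 of 10 called lower. The summed level of 8 neural stem and progenitor markers was between 6521 and 8227 CPM in *Kat6a*+/+ and between 8477 and 12486 CPM in *Kat6a*–/– libraries, although 4 of the 8 were called lower and 3 higher, with a median log2 fold-change of −0.43. Of 8 endothelial markers, 1 passed the filter on low counts and was called lower, and up to 5 had no reads in a *Kat6a*+/+ library. The sum of the 8, which thus rests on few genes, was between 46.9 and 73.1 CPM in *Kat6a*+/+ and between 10.7 and 37.3 CPM in *Kat6a*–/– libraries. Oligodendrocyte lineage markers summed to between 1199 and 1413 CPM and to between 691 and 1227 CPM in the same order, with 3 of 5 tested called lower and 1 higher. Astrocyte markers summed to 7065 CPM in *Kat6a*–/– replicate 2, against 1895 to 3580 CPM in the other null libraries and 2267 to 3244 CPM in *Kat6a*+/+. Of these 8 markers, 3 were called lower and 1 higher. Fibroblast markers, 8 in number, summed to between 14.9 and 45.2 CPM in *Kat6a*+/+ libraries. They summed to 201, 23.1, 198 and 141 CPM in *Kat6a*–/– replicates 1, 2, 3 and 4. Of the 4 that passed the filter, 3 were called higher. The part of all these measures in the levels of the 33 genes was not tested. Within litter 4633, 21 of the 33 genes were lower in *Kat6a*–/– (median −0.09), and within litter 4746, 16 of 33 were lower (median 0.08).

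Whether the effect of *Kat6a* loss differed between conditions was tested as an interaction over all 24 libraries. It was called for 2 of the 33 genes, *Acss2* and *Ebp*, both with a more positive effect of *Kat6a* loss in differentiating NSPCs, and for 13.9% of all 13590 genes (6.36% more positive, 7.58% more negative). In differentiating NSPCs *Acss2* was at 61.8, 66.1, 62.4 and 55.9 CPM in *Kat6a*+/+ and at 61.6, 67.3, 59.3 and 64.8 CPM in *Kat6a*–/– libraries, which overlapped, in place of the separation seen in proliferating cells. In proliferating NSPCs *Ebp* was at 31.5, 32.6, 29.8 and 28.7 CPM in *Kat6a*+/+ and at 22.6, 24.2, 29.0 and 22.4 CPM in *Kat6a*–/– libraries, of which 3 lay below the *Kat6a*+/+ range. The interaction was 0.95 on the log2 scale for *Acss2* (SE 0.23, FDR 0.00766) and 1.03 for *Ebp* (SE 0.27, FDR 0.0143, limma), and both were called in all 32 alternative fits. The naming rule, which goes by p-value, next took *Tm7sf2* at 0.51 (FDR 0.0693) and *Fasn* at −0.39 (FDR 0.147, limma). Neither passed, so that the effect on *Fasn* is not shown to differ between conditions. Some estimates that were not called were larger in size, up to 0.61 among mevalonate enzymes and to −0.55 among fatty acid enzymes. In proliferating NSPCs *Tm7sf2* was at 58.9, 71.3, 59.4 and 59.5 CPM in *Kat6a*+/+ and at 46.8, 54.6, 51.4 and 54.5 CPM in *Kat6a*–/– libraries, a difference that missed the threshold (log2 fold-change −0.21, FDR 0.072, limma) although the groups were apart.

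*Kat6a*+/– NSPCs were compared with *Kat6a*+/+ NSPCs to ask whether loss of a single allele moved the same genes. None of the 33 genes, and 0 genes of the whole table, was called by limma in either condition. At an unadjusted p under 0.05 there were 1 of the 33 genes in proliferating and 2 in differentiating NSPCs, and 912 and 1926 of all genes. edgeR called 0 genes of the whole table in each condition, DESeq2 called 28 and 8, and neither called any of the 33. The *Kat6a*+/– and *Kat6a*+/+ libraries overlapped for all 33 genes in both conditions. Over all genes, groups were apart for 4.53% in proliferating NSPCs (1.89% higher and 2.64% lower in *Kat6a*+/–) and for 2.79% in differentiating NSPCs (1.42% higher and 1.36% lower).

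The smallest p-values for *Kat6a*+/– belonged to *Hsd17b7*, *Me1* and *Idi1* in proliferating NSPCs and to *Me1*, *Tm7sf2* and *Fasn* in differentiating NSPCs. *Me1* was at 57.0, 82.5, 62.8 and 118 CPM in proliferating *Kat6a*+/– libraries, with a mean of 80.0 ± 27.3 CPM between 54.5 ± 7.72 CPM in *Kat6a*+/+ and 128 ± 33.1 CPM in *Kat6a*–/–. In differentiating *Kat6a*+/– libraries it was at 155, 128, 116 and 183 CPM, with a mean of 145 ± 30.1 CPM between 114 ± 15.7 and 181 ± 22.6 CPM. In each condition 2 heterozygous libraries lay within the *Kat6a*+/+ range and 2 above it. The fitted log2 fold-change was 0.44 in proliferating (FDR 0.671) and 0.35 in differentiating NSPCs (FDR 0.255, limma).

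*Hsd17b7* was at 70.8, 79.2, 78.8 and 82.8 CPM in proliferating *Kat6a*+/– libraries, of which 3 lay above the *Kat6a*+/+ range (log2 fold-change 0.21, FDR 0.525, limma). *Idi1*, whose isomerase makes the second isoprenoid building block, was at 307, 339, 365 and 261 CPM in proliferating *Kat6a*+/– against 257, 283, 313 and 285 CPM in *Kat6a*+/+ libraries, which overlapped (log2 fold-change 0.19, FDR 0.745, limma). *Tm7sf2* was at 33.8, 24.8, 26.8 and 38.2 CPM in differentiating *Kat6a*+/– libraries, 2 of them above the *Kat6a*+/+ range (log2 fold-change 0.33, FDR 0.267, limma). *Fasn* was at 505, 527, 486 and 399 CPM there, 1 of them below the *Kat6a*+/+ range (log2 fold-change −0.18, FDR 0.387, limma).

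The SREBP genes and their partners showed no difference past the threshold between *Kat6a*+/– and *Kat6a*+/+ NSPCs. In proliferating *Kat6a*+/– libraries *Srebf1* was at 282, 271, 236 and 228 CPM, *Srebf2* at 631, 645, 655 and 544 CPM, *Insig1* at 438, 481, 510.3 and 396 CPM and *Stard4* at 242, 211, 317 and 192 CPM. In differentiating *Kat6a*+/– libraries *Srebf1* was at 414, 545, 541 and 606 CPM, *Srebf2* at 425, 418, 437 and 289.8 CPM, *Insig1* at 256, 228, 201 and 134 CPM and *Stard4* at 89.3, 76.1, 71.6 and 53.5 CPM. Differentiating *Kat6a*+/– replicate 4 was the lowest of its group for *Srebf2*, *Insig1* and *Stard4*, and for 24 of the 33 genes in all.

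Between *Kat6a*–/– and *Kat6a*+/– NSPCs, a comparison that shares its *Kat6a*–/– libraries with those above, 7 of the 33 genes were lower and 1 higher in proliferating cells, against 6.30% and 8.47% of all genes (14.8% in all). *Acss2* was lower by −0.68 (FDR 0.0187), *Nsdhl* by −0.35 (FDR 0.0199), *Fdps* by −0.44 (FDR 0.0207) and *Pmvk* by −0.43 (FDR 0.0208), and *Ebp*, *Msmo1* and *Acat2* were the other genes called lower. *Me1* was higher by 0.71 on the log2 scale (FDR 0.0311, limma). For *Acss2*, the *Kat6a*+/– libraries were at 164, 127, 209 and 110.4 CPM, all above the *Kat6a*–/– libraries, and *Nsdhl* was the other gene whose groups were apart. Over all genes, the *Kat6a*–/– libraries lay entirely above the *Kat6a*+/– range for 6.22% and entirely below for 6.07% (12.3% in all). The count of 8 was 0 without *Kat6a*+/– replicate 1 or *Kat6a*–/– replicate 4, 2 without *Kat6a*–/– replicate 1, and 5 without *Kat6a*+/– replicate 3 or *Kat6a*+/+ replicate 1. Over all genes the same fits called 803, 696, 1005, 1475 and 1476 in that order, against 1813 in the main fit.

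In differentiating cells 4 of the 33 genes were lower and 2 higher in *Kat6a*–/– than in *Kat6a*+/– NSPCs, against 18.5% and 19.1% of all genes (37.5% in all). *Acaca* was lower by −0.41 (FDR 0.00218), *Acat2* by −0.48 (FDR 0.0177), *Fasn* by −0.33 (FDR 0.0251) and *Dhcr7* by −0.49 (FDR 0.0452, limma). *Sc5d* was higher by 0.32 (FDR 0.0195) and *Ebp* by 0.62 on the log2 scale (FDR 0.0286, limma). *Acaca* was at 59.2, 59.8, 58.6 and 54.9 CPM in *Kat6a*+/–, all above the *Kat6a*–/– libraries, and was the single gene of the 33 whose groups did not overlap, against 9.48% of all genes entirely below and 6.74% entirely above (16.2% in all). None of the 33 was called without *Kat6a*–/– replicate 1 or without replicate 3, 2 were without *Kat6a*+/– replicate 1, and 10 were without *Kat6a*–/– replicate 2. Over all genes these fits called 345, 243, 3489 and 7397 in that order, against 5007 in the main fit.

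The conditions were compared in *Kat6a*+/+ NSPCs to give the size of the genotype differences a scale. In these cells, 23 of the 33 genes were lower and 3 higher after 3 days of differentiation, with a median log2 fold-change of −0.91 against 0.02 over all genes. Over all 13590 genes, 36.2% fell and 36.7% rose, which is 72.9% in all. Groups were apart for 27 of the 33 genes, 24 below and 3 above, against 35.2% and 36.7% of all genes (71.9% in all). By role, 7 of 8 mevalonate enzymes, 8 of 11 enzymes from squalene to cholesterol, 3 of 4 sensing and transport genes and 5 of 10 fatty acid enzymes fell, and 1 sensing gene and 2 fatty acid enzymes rose.

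*Elovl6*, which elongates palmitate, fell most. It was at 342, 368, 390.0 and 369 CPM in proliferating and at 65.2, 59.1, 66.6 and 48.2 CPM in differentiating *Kat6a*+/+ libraries, a fall of 2.64 on the log2 scale (SE 0.15, FDR 6.37e-12, limma). *Idi1* fell by 2.38 (SE 0.17, FDR 1.58e-10), from between 257 and 313 CPM to 47.0, 68.3, 59.4 and 46.8 CPM. Neither gene had a differentiating library near its proliferating range. *Lss* fell by 2.08, *Fdps* by 1.87, *Dhcr7* by 1.73 (FDR 9.43e-09), *Mvd* by 1.69 and *Stard4* by 1.65 (FDR 3.93e-09, limma). *Hmgcs1* fell least among the 23, by 0.58 on the log2 scale (FDR 0.00807, limma).

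The SREBP genes moved in opposite directions across conditions. *Srebf2* fell by 0.67 on the log2 scale (FDR 1.27e-05) and *Srebf1* rose by 1.04 (FDR 6.27e-07, limma), and both genes had groups apart, at 612 to 691 against 392 to 455 CPM and at 247 to 281 against 503 to 585 CPM. *Insig1* fell by 0.83 (FDR 1.9e-05, limma). *Me1* rose by 1.07 (FDR 8.68e-05) and *Scd1* by 0.34 (FDR 0.0384, limma). The 7 genes that were not called were *Fads1*, *Fads2*, *Scd2*, *Ggps1*, *Sqle*, *Hsd17b7* and *Sc5d*. The groups of *Fads2* and *Ggps1* were nevertheless apart, with *Fads2* higher and *Ggps1* lower in differentiating NSPCs. Cell cycle genes, at 3282 to 3709 CPM in proliferating and at 733 to 1257 CPM in differentiating *Kat6a*+/+ libraries, moved with this contrast, and their part in it was not tested.

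**Figure D4:**
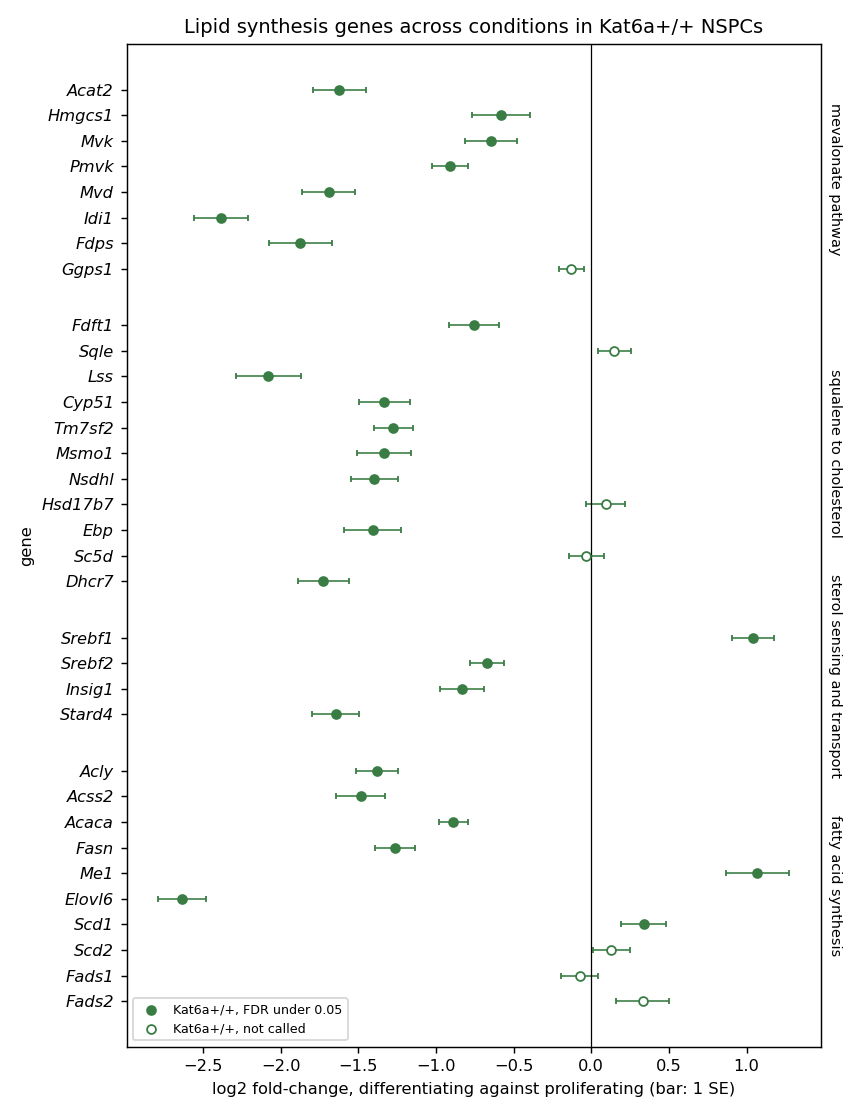
Fitted log2 fold-change of differentiating against proliferating *Kat6a*+/+ NSPCs (horizontal axis) for each of the 33 genes (vertical axis, grouped by role). Bars are 1 SE, and filled points had an FDR under 0.05. *Elovl6* (−2.64) and *Idi1* (−2.38) lay farthest to the left, and *Me1* (1.07) and *Srebf1* (1.04) farthest to the right.

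Other genes of lipid metabolism were read from lists that hold none of the 33 genes. Of 13 genes of fatty acid oxidation, 7 rose and 0 fell in proliferating *Kat6a*–/– NSPCs, with a median log2 fold-change of 0.45, against 16.2% and 13.8% of all genes. *Cpt1a*, which admits fatty acids to mitochondria, rose by 0.57 (FDR 0.000468) and *Slc25a20*, the carnitine carrier, by 0.45 (FDR 0.00197, limma). *Cpt1a* was at 99.4 ± 7.03 CPM in *Kat6a*+/+ and at 144 ± 11.9 CPM in *Kat6a*–/– NSPCs. In differentiating NSPCs 2 of the 13 rose and 2 fell, with a median of 0.05, against 26.7% and 27.7% of all genes, and *Cpt1a* rose by 0.36 (FDR 0.000154), whereas *Ppara* fell by 0.37 (FDR 0.00782) and *Slc25a20* by 0.25 (FDR 0.0258, limma). Of the 13 genes, 11 rose and 1 fell from proliferating to differentiating *Kat6a*+/+ NSPCs, where 72.9% of all genes were called.

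Of the genes of liver X receptors and of sterol export and storage, 4 rose and 1 fell of 8 tested in proliferating *Kat6a*–/– NSPCs, and 4 rose and 2 fell of 9 tested in differentiating ones, where 30.0% and 54.4% of all genes were called. *Abca1*, which exports cholesterol to lipoproteins, was at 5.00 ± 2.69 CPM in proliferating *Kat6a*+/+ and at 31.8 ± 23.9 CPM in *Kat6a*–/– NSPCs (log2 fold-change 2.33, FDR 0.0191), and at 299 ± 34.9 and 554 ± 54.1 CPM in differentiating NSPCs (log2 fold-change 0.84, FDR 0.000215, limma). *Smpdl3a* rose by 0.63 in both conditions (FDR 0.00424 and 0.000117), and *Nr1h2*, a liver X receptor, rose by 0.24 in differentiating NSPCs (FDR 0.00583, limma).

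Of 12 genes that control SREBPs or take up sterols, 2 rose and 0 fell in proliferating *Kat6a*–/– NSPCs, and 3 rose and 1 fell in differentiating ones, with medians of −0.08 and 0.14. Both shares are below the 30.0% and 54.4% of all genes that were called. The SREBP proteases diverged in differentiating NSPCs, where *Mbtps1* rose by 0.43 (FDR 0.000379) and *Mbtps2* fell by 0.37 (FDR 0.00136, limma). In proliferating NSPCs *Mbtps1* rose by 0.23 (FDR 0.0118), *Faf2* rose by 0.27 (FDR 0.00607) and *Mbtps2* was at −0.27 (FDR 0.0516, limma). *Insig2*, which encodes the other INSIG protein, rose by 0.60 in differentiating *Kat6a*–/– NSPCs (FDR 9.83e-05, limma), from 42.2 ± 1.96 to 60.5 ± 11.3 CPM.

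Of 15 further genes of sterol and fatty acid metabolism, 2 rose and 4 fell in proliferating *Kat6a*–/– NSPCs. In differentiating ones 5 rose and 1 fell. The medians were 0.03 and 0.18 in that order, where 30.0% and 54.4% of all genes were called. *Hacd2*, a dehydratase of fatty acid elongation, rose by 0.60 (FDR 0.00514) and by 1.05 (FDR 4.23e-06, limma), from 61.7 ± 10.8 to 115 ± 7.77 CPM in differentiating cells. *Slc25a1*, the citrate carrier that supplies *Acly*, fell by 0.34 in proliferating NSPCs (FDR 0.00738, limma), whereas *Hacd3* rose by 0.42 (FDR 0.00269). *Pgrmc1* rose by 0.69 (FDR 6.63e-05) and *Lpin1* by 0.59 (FDR 0.000152, limma) in differentiating NSPCs. In differentiating NSPCs, leaving out *Kat6a*–/– replicate 1 or 3 left 0 or 1 call in each of these lists.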

How the data were processed

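The authors used Rsubread to align reads to mm39, counted them per gene with featureCounts and a strict RefSeq annotation, and deposited raw counts per gene for each library. The version of Rsubread used for these libraries and the strand setting of the counting are not given in the sources used here, so overlapping genes on opposite strands carry some uncertainty. Groups, replicate numbers and litters were taken from the labels.

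From the counts, the filterByExpr function of edgeR 4.0.16 chose the protein-coding genes to test, without *Xist* and genes unique to the Y chromosome, and libraries were scaled by TMM factors. Following the study's methods, proliferating libraries were fitted with limma-voom (limma 3.58.1, R 4.3.3) with litter as a random block (correlation 0.287), and differentiating libraries with limma-trend (prior count 2) and quality weights from arrayWeights. A voom fit of all 24 libraries gave the contrast of conditions and the interaction. Moderation was robust, p-values were adjusted over all tested genes, and 0.05 was the FDR threshold. The study's numbers of called genes were not matched exactly. For *Kat6a*–/– against *Kat6a*+/+, 7258 of 13339 genes were called in differentiating NSPCs, well above the number the study reports. In proliferating NSPCs 3686 of 12276 were called, slightly below the study's number. The reason was not tested. Printed CPM are unweighted. Alternatives were edgeR's quasi-likelihood test, DESeq2 1.42.0, library totals in place of TMM, no filter, other treatments of litter and weights, a replicate block and leaving out each library, and 1 alternative, without both libraries of a proliferating litter, was added after the data were seen. Library totals ranged from 7826660 to 40838203 counts, and the lowest value of any of the 33 genes in a library was 8.17 CPM, that of *Ebp*.

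The 33 genes and the other lists were chosen with earlier results of these data known. Genes given with values by library were the 4 sensing and transport genes, up to 5 called genes in each direction with the smallest p-values per contrast of *Kat6a*–/– and *Kat6a*+/+, the 3 smallest p-values per contrast of *Kat6a*+/–, and the 4 smallest p-values of the interaction and of the contrast of conditions, and of each other list up to 3 genes per contrast of *Kat6a*–/– and *Kat6a*+/+. *Hmgcs1* was the member with the sterol response element, and the other 4 promoters shown, and the members given with values outside this rule, were chosen after their values were seen. Some genes of the other lists are not reported here. Replicates of a group differed by a chi-square of at least 5.55 per degree of freedom, so no libraries were alike within sampling noise. The fits were tested on simulated counts drawn without litter effects or differences in library quality, so that test cannot speak to either. Positions on GRCm39 came from GENCODE vM39.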

Additional observations from a re-analysis of the deposited data

Results flagged for a closer look

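Among 198 groups of 4 libraries (33 genes in 6 groups), 7 held a library far from the other 3 by Dixon's test at the 95% level, which chance gives in about 1 of 20 groups. In proliferating NSPCs these were *Lss* in *Kat6a*–/– replicate 4 (167.9 CPM, the others 304 to 318), *Acly* in *Kat6a*+/– replicate 4 (679 CPM, the others 848 to 866) and *Tm7sf2* in *Kat6a*+/+ replicate 2 (71.3 CPM, the others 58.9 to 59.5). In differentiating NSPCs they were *Pmvk* (29.8 CPM, the others 39.3 to 41.2) and *Srebf2* (289.8 CPM, the others 418 to 437) in *Kat6a*+/– replicate 4, and *Hsd17b7* (111.7 CPM, the others 86.7 to 89.1) and *Elovl6* (43.4 CPM, the others 61.7 to 64.1) in *Kat6a*–/– replicate 2. Replicates 4 of proliferating *Kat6a*–/– and *Kat6a*+/– NSPCs came from the same litter.

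The difference between *Kat6a*–/– and *Kat6a*+/+ NSPCs itself differed between conditions for *Ebp* (interaction 1.03 on the log2 scale, SE 0.27, FDR 0.0143) and for *Acss2* (0.95, SE 0.23, FDR 0.00766, limma). For *Ebp* the fitted difference changed sign between conditions, and for *Acss2* it was present in proliferating NSPCs and near 0 in differentiating ones (−0.02, FDR 0.846, limma). Within litters 4633 and 4746, *Acss2* differed by −0.60 and −0.71 in proliferating and by 0.04 and 0.09 in differentiating NSPCs, and *Ebp* by −0.34 and 0.02 in proliferating and by 0.49 and 1.48 in differentiating NSPCs.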

How the results depend on the processing

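Numbers of calls moved with the processing. No member named for a contrast of *Kat6a*–/– and *Kat6a*+/+ NSPCs changed sign under any alternative, and *Kat6a*+/– gave no called member under any. The named members were picked by small p-values in these same libraries. Their signs could therefore hardly change, and this gives the directions no further support. The contrast of conditions gave 25 to 27 called members under all alternatives, against 26. In proliferating NSPCs, *Kat6a*–/– against *Kat6a*+/+ gave 10 called members, 6 with litter as a fixed term and 4 to 12 with a library left out. Over all genes these gave 3686, 1936 and 2317 to 3996. Against *Kat6a*+/– it gave 8, with 2 by edgeR, 14 with library totals as scaling, 5 without the filter, 16 with litter as a fixed term, 1 without a litter term and 0 to 11 with a library left out. Over all genes these gave 1813, 951, 1871, 1474, 2056, 960 and 696 to 2200. In differentiating NSPCs, *Kat6a*–/– against *Kat6a*+/+ gave 13, with 4 by edgeR, 5 by DESeq2, 4 with litter as a fixed term, 4 without quality weights and 0 to 22 with a library left out. Over all genes these gave 7258, 3244, 4076, 1785, 3097 and 939 to 9505. Against *Kat6a*+/– it gave 6, with 1 by edgeR, 2 by DESeq2, 10 with library totals, 1 without the filter, 2 with litter as a fixed term, 1 without quality weights and 0 to 10 with a library left out. Over all genes these gave 5007, 1656, 2621, 5899, 3031, 386, 1616 and 243 to 7397. The interaction gave 2, with 4 when litter was a fixed term and 2 to 4 with a library left out. Over all genes these gave 1895, 1558 and 1265 to 3520. The causes were not tested. Library totals moved the median of all genes in differentiating *Kat6a*–/– NSPCs by −0.17 on the log2 scale, gave 2635 genes higher and 5669 lower over the whole table, and gave 3 members higher and 14 lower.

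Replicate numbers did not pair the libraries, since 4 of 12 same-numbered pairs in proliferating and 1 of 12 in differentiating NSPCs had deviations that correlated above 0.1. With the replicate block the 2 contrasts of *Kat6a*–/– and *Kat6a*+/+ gave 13 and 14 called members, and those of *Kat6a*–/– and *Kat6a*+/– gave 7 and 5. Over all genes these gave 3604, 7211, 1625 and 4203. With 4 libraries a group, the calls for *Kat6a*–/– in differentiating NSPCs rested on *Kat6a*–/– replicates 1 and 3. All 4 *Kat6a*–/– libraries lay outside the *Kat6a*+/+ range for *Acat2*, *Dhcr7*, *Acaca*, *Fasn* and *Me1*. Over all genes the groups were apart for 26.9%, and these genes come from the same libraries, so this gives the calls no further support. *Dhcr7* was not called by edgeR, by DESeq2 or without quality weights.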
